A study of Macaca mulatta with 136 samples.

Results

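A list of 10 immediate early genes was followed through the retina and the RPE/choroid of the rhesus macaque: FOS, FOSB, JUN, JUNB, EGR1, EGR3, ATF3, NR4A1, IER2 and DUSP1. The members were those of the 10 whose symbol is given to a gene in the deposited values. This held for 8 of the 10, among 19422 gene identifiers in all. NR4A1 was found only as the human counterpart of an entry named LOC696797 (ENSMMUG00000022922), so its values are given beside those of the 8 members and are not counted with them. DUSP1 was not analysed here.

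The tissue came from 4 eyes, the right and the left eye of 2 untreated adult rhesus monkeys, RM03 and RM04, taken after death. Punches of 2 mm were cut at 4 locations (fovea, perimacula, nasal and periphery, where the protocol text names a temporal region in place of the periphery), and each was separated into neural retina and RPE/choroid, which is the pigment epithelium together with the vessels, stroma and immune cells beneath it. RNA was kept where the integrity number was above 6.5, and each of the 32 samples was made into a library. All values are bulk values of a whole punch, so fewer cells of a type and less RNA per cell cannot be told apart, and the time from death to RNA extraction is not given in the sources used here. With 4 eyes from 2 animals, fellow eyes are not independent animals.

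Immediate early genes are transcribed as soon as a cell receives a signal, because the proteins that switch them on are already present. Growth factors, calcium entry and stress act through MAP kinases and calcium-dependent kinases on the serum response factor and its partners and on CREB, which sit on the promoters of these genes. Most of the products are themselves transcription factors, and their transcripts and proteins are short-lived. FOS and JUN proteins pair to form the AP-1 factor, EGR proteins are zinc finger factors that bind GC-rich DNA, NR4A1 is an orphan nuclear receptor, and IER2 is a small nuclear regulator of transcription. In the retina, these genes are known for their response to light, to neuronal activity and to injury, and in vessels for their response to blood flow and growth factors.

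Library depth was 42448891 to 78574034 estimated counts. Each of the 24 libraries from the fovea, perimacula and nasal location was sequenced on 5 lanes, over 2 flow cells. For the 8 periphery libraries it was 2 lanes of a separate flow cell, so in every comparison with the periphery that follows, location and flow cell cannot be told apart. The tissues carried their markers. The summed level of 8 rod genes was 3707 to 26647 CPM (counts scaled to the library total) in the retina against 27.1 to 891 in the RPE/choroid, and that of 7 RPE genes was 10017 to 28780 CPM in the RPE/choroid against 296 to 2659 in the retina. Within the retina, the sum of the RPE genes was 296 to 439 CPM in the fovea and 1878 to 2659 CPM in the periphery. The source of this difference was not tested. Levels are given as normalised CPM, in the order RM03 right eye, RM03 left eye, RM04 right eye and RM04 left eye wherever 4 values stand together. They are not set against each other between genes, because they are not divided by transcript length.

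Most members were higher in the RPE/choroid than in the retina, and in both tissues most were higher in the fovea than in the periphery. At the fovea, 6 of the 8 members passed between the tissues, where 75.5% of all genes did. From fovea to periphery, 6 passed in the retina and 5 in the RPE/choroid, where 67% and 44.1% of all genes did. Several of these calls were lost when an eye was left out, as given below. EGR1 and EGR3 had the largest foveal excess over the periphery in the RPE/choroid. ATF3 differed from the other members, since it was higher in the fovea than in every other location in the retina. Over the perimacula the groups overlapped, and that call (edgeR adjusted p = 0.045) was lost under several settings given below. In the RPE/choroid ATF3 passed none of the location tests made, which were fovea against each other location and perimacula against periphery. The 2 animals also differed. RM04 had more EGR1 transcript than RM03 in every location of both tissues.

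**Figure D1:**
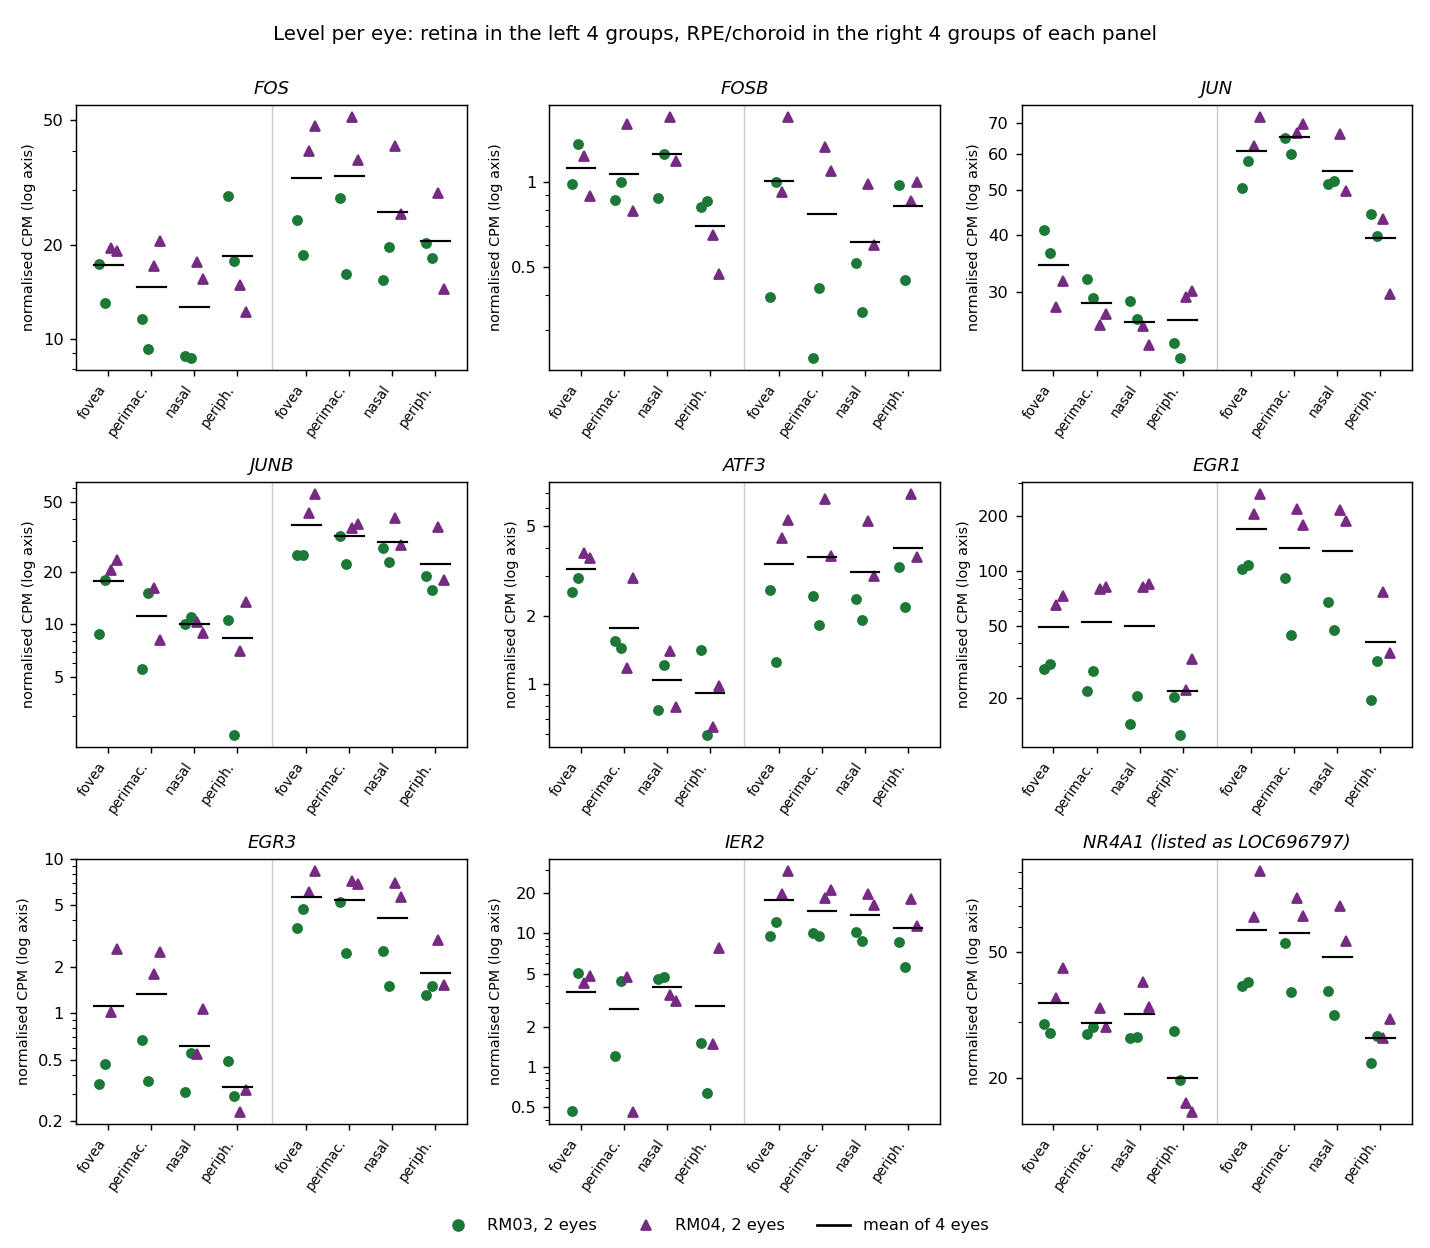
Normalised CPM of the 8 members and NR4A1 on a log axis, with one point per library, circles for the 2 eyes of RM03, triangles for the 2 eyes of RM04 and a bar for the mean of 4 eyes. Retina is left of the grey line and RPE/choroid right of it, and for EGR1 both triangles lie above both circles in all 8 groups.

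FOS is the founding member of its family and the partner of JUN in AP-1. In the retina, FOS was 17.4, 13.1, 19.6 and 19.04 CPM in the fovea and 28.7, 17.7, 14.9 and 12.2 CPM in the periphery. The groups overlapped, and the order of the eyes was turned around, with RM04 higher in the fovea and RM03 higher in the periphery. The log2 fold change of fovea over periphery was -0.06 ± 0.29 (SE, n = 4 eyes per group, edgeR adjusted p = 0.87). In the RPE/choroid, FOS was 23.97, 18.5, 39.9 and 48.1 CPM in the fovea and 20.3, 18.2, 29.2 and 14.4 CPM in the periphery, higher in the fovea in 4 of 4 eyes by 0.55 ± 0.27 on the log2 scale, which did not pass the test (adjusted p = 0.12). The 8 group means of FOS ran from 33.2 CPM in the perimacular RPE/choroid to 12.7 CPM in the nasal retina, and each group overlapped the next in that order.

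FOSB, a second FOS-type partner of JUN proteins, rested on few counts, 15 to 100 per library. In the retina it was 0.98, 1.36, 1.24 and 0.90 CPM in the fovea and 0.82, 0.86, 0.65 and 0.47 CPM in the periphery. The groups did not overlap, and the log2 fold change was 0.74 ± 0.27 (adjusted p = 0.029), with the call lost without the left eye of RM03 (adjusted p = 0.093) or of RM04 (adjusted p = 0.067). In the RPE/choroid, the same comparison gave 0.19 ± 0.46 (adjusted p = 0.77). FOSB was the one member that passed the test as higher in the retina than in the RPE/choroid: in the nasal samples it was 1.25 ± 0.34 CPM in the retina and 0.61 ± 0.27 CPM in the RPE/choroid (mean ± SD, n = 4), a log2 fold change of 1.06 ± 0.41 (SE, adjusted p = 0.021). Every eye was higher in the retina although the groups overlapped, and the call was lost with 2 lanes per library (adjusted p = 0.0507) and without the left eye of RM03 (adjusted p = 0.12).

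JUN, the DNA-binding partner of FOS that also pairs with itself, varied least among eyes, with an SD of 0.20 on the log2 scale in each tissue. In the RPE/choroid it was 50.6, 57.99, 62.5 and 72.2 CPM in the fovea and 44.5, 39.8, 43.2 and 29.7 CPM in the periphery. Every foveal eye lay above every peripheral eye, by 0.61 ± 0.14 on the log2 scale (adjusted p = 0.0042), and the perimacula was above the periphery by 0.71 ± 0.14 (adjusted p = 0.0023). In the retina it was 41.0, 36.6, 27.9 and 31.7 CPM in the fovea and 23.2, 21.6, 29.3 and 30.2 CPM in the periphery, which overlapped. The log2 fold change of 0.44 ± 0.15 passed the test (adjusted p = 0.019). Both eyes of RM03 were clearly higher in the fovea and those of RM04 were not, and the call was lost without the right eye (adjusted p = 0.12) or the left eye of RM03 (adjusted p = 0.11). Over the nasal location, the retinal fovea was higher by 0.45 ± 0.13 (adjusted p = 0.011), in 4 of 4 eyes.

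JUNB forms AP-1 dimers that are weaker activators than those of JUN. In the RPE/choroid, JUNB was 24.9, 24.99, 43.1 and 55.7 CPM in the fovea and 19.01, 15.8, 36.2 and 17.9 CPM in the periphery, higher in the fovea in 4 of 4 eyes by 0.69 ± 0.21 (adjusted p = 0.023). In the retina, it was 8.82, 17.998, 20.5 and 23.3 CPM in the fovea and 10.7, 2.35, 7.03 and 13.4 CPM in the periphery. The right eye of RM03 was higher in the periphery and the other three eyes were higher in the fovea, and the log2 fold change was 1.13 ± 0.45 (adjusted p = 0.044). Taking each eye as the block gave 1.08 (adjusted p = 0.086), and the call was also lost without the left eye of RM03 or without either eye of RM04 (adjusted p from 0.082 to 0.20).

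ATF3 is a stress-induced member of the ATF/CREB family that pairs with JUN proteins. In the retina, ATF3 was 2.56, 2.94, 3.805 and 3.61 CPM in the fovea, 1.56, 1.44, 1.18 and 2.95 CPM in the perimacula, 0.77, 1.22, 1.41 and 0.79 CPM in the nasal location and 1.42, 0.60, 0.65 and 0.98 CPM in the periphery. The fovea stood above both the nasal location and the periphery without overlap. The log2 fold change was 1.85 ± 0.33 over the periphery (adjusted p = 0.00037), 1.65 ± 0.32 over the nasal location (adjusted p = 0.00056) and 0.91 ± 0.32 over the perimacula (adjusted p = 0.045). The foveal and perimacular groups overlapped, and the call over the perimacula was lost under several settings given below. The nasal and foveal libraries shared their flow cells. The share of the sum of squares of log2 CPM that lay between locations was 76.1% for ATF3 in the retina, against a median of 58.7% over all 16382 genes and 33.4% over the 8 members.

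Among RPE/choroid samples, ATF3 was 2.61, 1.25, 4.45 and 5.31 CPM in the fovea and 3.29, 2.19, 6.96 and 3.64 CPM in the periphery. These overlapped, and the log2 fold change was -0.32 ± 0.31 (adjusted p = 0.43). The difference between the tissues was itself tested as an interaction. The foveal excess of ATF3 was greater in the retina than in the RPE/choroid by 2.02 ± 0.52 on the log2 scale against the periphery (adjusted p = 0.0027) and by 1.52 ± 0.52 against the nasal location (adjusted p = 0.036). The second of these lost its call whichever eye was left out. At the fovea the 2 tissues overlapped in ATF3, at 3.23 ± 0.58 CPM in the retina and 3.41 ± 1.83 CPM in the RPE/choroid (mean ± SD, n = 4), while in the periphery the RPE/choroid was 4.41-fold higher, with no overlap.

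EGR1, an early zinc finger factor that serum response factor controls, was the member most unequal between the central and peripheral RPE/choroid. It was 101.8, 107.8, 204.2 and 263.6 CPM in the fovea, 91.4, 44.7, 217.2 and 177.5 CPM in the perimacula, 67.8, 47.7, 214.0 and 186.0 CPM in the nasal location and 19.6, 31.9, 76.6 and 35.6 CPM in the periphery. All foveal eyes lay above all peripheral eyes. The log2 fold change was 2.03 ± 0.28 (adjusted p = 0.00021), and that of perimacula over periphery was 1.60 ± 0.28 (adjusted p = 0.0012). Against the nasal location, the fovea was higher in 3 of 4 eyes by 0.54 ± 0.27, which did not pass the test (adjusted p = 0.35).

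In the retina, EGR1 was 28.9, 30.8, 65.2 and 72.3 CPM in the fovea, 22.03, 28.2, 79.5 and 81.1 CPM in the perimacula, 14.4, 20.7, 81.1 and 84.2 CPM in the nasal location and 20.4, 12.6, 22.3 and 32.8 CPM in the periphery. The other 3 locations had close means, 49.3, 52.7 and 50.1 CPM, and the periphery had 22.05 CPM. Fovea over periphery gave 1.12 ± 0.20 (adjusted p = 0.00040), in 4 of 4 eyes although the groups overlapped between animals. The difference from fovea to periphery was smaller in the retina than in the RPE/choroid by 0.99 ± 0.39 on the log2 scale (interaction, adjusted p = 0.040), which became an adjusted p of 0.0507 when each eye was a block and 0.45 with no animal term. Without the right eye of RM03 it was 0.24 and without the left eye of RM04 it was 0.20.

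EGR3, a related factor that is known to follow EGR1 and calcium signalling, was 3.54, 4.77, 6.10 and 8.38 CPM in the foveal RPE/choroid and 1.31, 1.497, 2.97 and 1.53 CPM in the peripheral RPE/choroid. The groups did not overlap, and the log2 fold change was 1.62 ± 0.27 (adjusted p = 0.00080). In the retina, EGR3 was 0.35, 0.47, 1.02 and 2.60 CPM in the fovea and 0.49, 0.29, 0.23 and 0.32 CPM in the periphery. The groups overlapped, the right eye of RM03 being higher in the periphery. The log2 fold change was 1.39 ± 0.56 (adjusted p = 0.046), and this call was lost without the left eye of RM03, without the right eye of RM04 and without the left eye of RM04 (adjusted p from 0.053 to 0.29).

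IER2 was 9.57, 12.2, 19.5 and 29.4 CPM in the foveal RPE/choroid and 8.66, 5.55, 17.99 and 11.4 CPM in the peripheral RPE/choroid, higher in the fovea in 4 of 4 eyes by 0.67 ± 0.19 (adjusted p = 0.017). In the retina, IER2 was 0.47, 5.03, 4.22 and 4.81 CPM in the fovea, 1.197, 4.43, 4.68 and 0.46 CPM in the perimacula, 4.53, 4.72, 3.46 and 3.13 CPM in the nasal location and 1.51, 0.64, 1.47 and 7.71 CPM in the periphery. The right eye of RM03 was far below the others in the fovea, the right eye of RM03 and the left eye of RM04 were low in the perimacula, the left eye of RM04 was far above the others in the periphery, and no eye stood apart in the nasal location. Fellow eyes differed with an SD of 1.42 on the log2 scale, and fovea over periphery was 0.57 ± 0.84 (adjusted p = 0.56). Across the 16 retina libraries, with the location means removed, IER2 went with JUNB (r = 0.82) and with 933 of 12413 genes at r above 0.8, where the median gene had 205 such companions. The SD over the retinal eyes of a location was 1.35 on the log2 scale. Lanes of the same library differed in IER2 with an SD of 0.60, but this is pooled over both tissues and has a different added constant. The lane spread of the retina alone was not taken.

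NR4A1, by way of the entry LOC696797, was 39.0, 40.0, 64.6 and 90.5 CPM in the foveal RPE/choroid and 22.2, 27.1, 26.7 and 30.8 CPM in the peripheral RPE/choroid, with no overlap and a log2 fold change of 1.05 ± 0.17 (adjusted p = 0.00071). In the retina it was 29.6, 27.8, 35.6 and 44.4 CPM in the fovea and 28.1, 19.7, 16.6 and 15.6 CPM in the periphery. These overlapped, and the log2 fold change was 0.83 ± 0.19 (adjusted p = 0.0021).

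**Figure D2:**
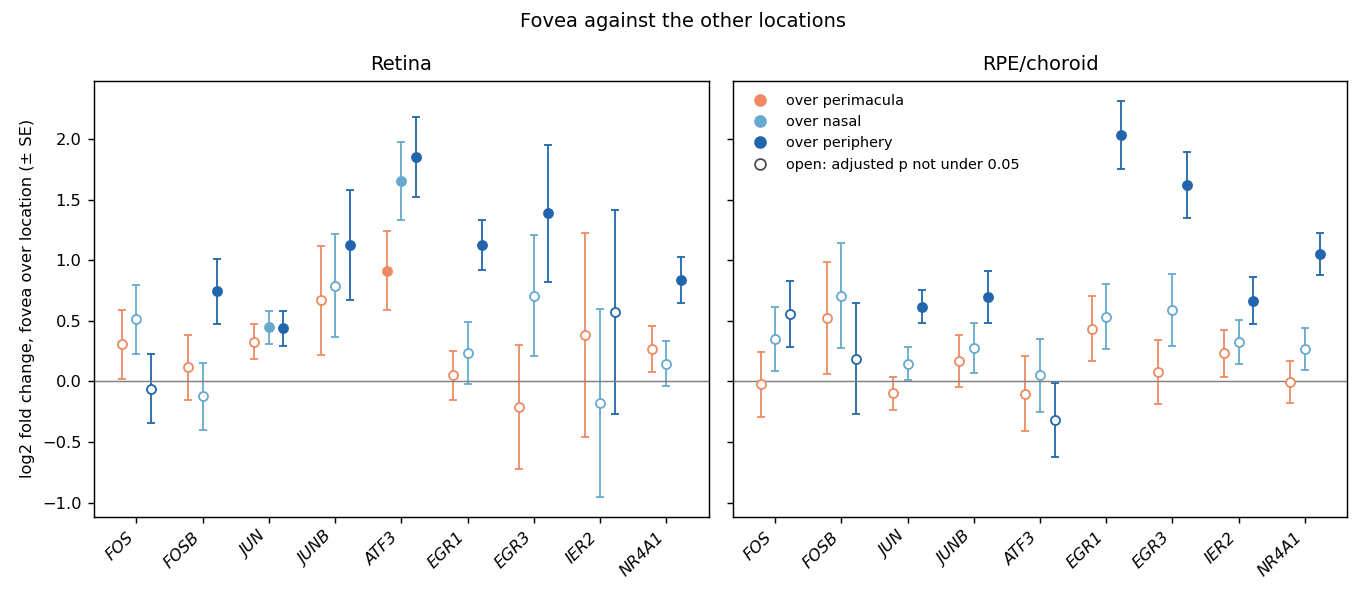
Log2 fold change of the fovea over each of the other 3 locations for each gene, with the standard error, in the retina (left) and the RPE/choroid (right). Filled points passed the test at an adjusted p under 0.05, and in the RPE/choroid these are the comparisons with the periphery for JUN, JUNB, EGR1, EGR3, IER2 and NR4A1.

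Counted together, 6 of the 8 members were higher in the fovea than in the periphery of the retina (ATF3, EGR1, EGR3, FOSB, JUN and JUNB) and none was lower, where 67% of all 15380 genes tested passed in either direction. The median log2 fold change of the members was 0.93 against -0.06 over all genes tested. Leaving out the left eye of RM03 left 2 of these calls, ATF3 and EGR1, and leaving out the left eye of RM04 left 3, ATF3, EGR1 and JUN. With 2 lanes for every library, the number the periphery libraries had, 4 calls were left, since EGR3 and JUNB each had an adjusted p of 0.066. From perimacula to periphery, 3 members were higher in the perimacula (ATF3, EGR1 and EGR3), where 50.3% of all genes passed, and 1 call was left when the right eye or the left eye of RM04 was taken out. The call of ATF3 there was also lost without the left eye of RM03 (adjusted p = 0.091) and with 2 lanes for every library (adjusted p = 0.11). Between fovea and nasal location, ATF3 and JUN passed, where 52.2% of all genes did. Between fovea and perimacula only ATF3 passed, where 35.2% of all genes did, and it was lost without the right eye of RM03, the left eye of RM03 or the right eye of RM04, with no filter on low counts and with no animal term.

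Within the RPE/choroid, 5 of the 8 members were higher in the fovea than in the periphery (EGR1, EGR3, IER2, JUN and JUNB) and none was lower, where 44.1% of all 15674 genes tested passed. The median of the members was 0.64 on the log2 scale and that of all genes -0.06. IER2 and JUNB lost their calls without the left eye of either animal and with no animal term, which left 3. From perimacula to periphery 3 members passed (EGR1, EGR3 and JUN), where 34.9% of all genes did. Between fovea and perimacula, edgeR called 0 of the 8 members and 0 at an unadjusted p under 0.05, DESeq2 called 0 as well, and 0.0447% of all genes passed. Between fovea and nasal location, edgeR again called 0 members and 0 at an unadjusted p under 0.05, and DESeq2 called 0, where 0.361% of all genes passed. The log2 fold changes there were 0.05 to 0.71, and the fovea was higher in 2 of 4 eyes for ATF3, FOS, FOSB, IER2 and JUN and in 3 of 4 eyes for EGR1, EGR3 and JUNB.

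Markers of the cells in the punches moved with location as well. In the retina, the summed level of 7 ganglion cell genes was 7844 to 8895 CPM in the fovea, 2257 to 4718 in the perimacula, 1563 to 1782 in the nasal location and 362 to 790 in the periphery, while the 8 rod genes went from 3707 to 4445 CPM in the fovea to 23846 to 26647 in the periphery. For the RPE/choroid, 6 smooth muscle and pericyte genes had 5607 to 8450 CPM in the fovea and 1104 to 2499 in the periphery, and 8 endothelial genes had 1625 to 2284 CPM and 1054 to 1425. The 6 fibroblast genes went the other way, from 2659 to 3416 CPM in the fovea to 5180 to 9923 in the periphery. No marker of these lists was at 0, and the part of these cells in the values of the immediate early genes was not tested.

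Between the tissues, the retina was lower for most members at every location. At the fovea, 6 of the 8 were lower in the retina (EGR1, EGR3, FOS, IER2, JUN and JUNB), where 75.5% of all 16382 genes passed in either direction. At the perimacula 7 were lower, FOSB being the exception, where 76.7% of all genes passed. At the nasal location 7 were lower and FOSB was higher, where 76.2% passed. In the periphery 6 were lower (ATF3, EGR1, EGR3, IER2, JUN and JUNB), where 75.7% passed, and without the right eye of RM04 this was 3 (ATF3, EGR3 and JUN). The medians of the members, -0.95, -1.28, -1.47 and -1.11 on the log2 scale from the fovea to the periphery, stood beside medians of all genes between -0.01 and 0.02. The share of members called was near that of all genes at the fovea and in the periphery, and 7 and 8 of 8 were called at the perimacula and the nasal location.

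EGR3 and IER2 had wide gaps at every location. EGR3 had a log2 fold change of retina over RPE/choroid of -2.55 ± 0.44 at the fovea (adjusted p = 1.0e-05) and -2.62 ± 0.45 at the nasal location (adjusted p = 8.6e-06). The mean in the RPE/choroid was 5.13-fold that of the retina at the fovea and 6.73-fold at the nasal location. IER2 differed by -2.22 ± 0.62 at the fovea (adjusted p = 0.0022), with no overlap although the retinal eyes ranged from 0.47 to 5.03 CPM. EGR1 differed by -1.79 ± 0.28 at the fovea (adjusted p = 2.2e-06) and by -0.80 ± 0.27 in the periphery (adjusted p = 0.011), where the groups overlapped. JUN differed by -0.59 ± 0.14 in the periphery and by -1.20 ± 0.14 at the perimacula. FOS in the periphery did not pass the test (-0.07 ± 0.30, adjusted p = 0.84). Single eyes of RM04 decided some calls, since FOS and JUNB at the fovea were lost without the right eye or without the left eye (adjusted p from 0.068 to 0.11), and ATF3 at the perimacula and IER2 at the nasal location without the right eye (adjusted p of 0.34 and 0.14). EGR1 in the periphery was also lost without the left eye of RM03 (adjusted p = 0.11) and with no animal term (adjusted p = 0.19).

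**Figure D3:**
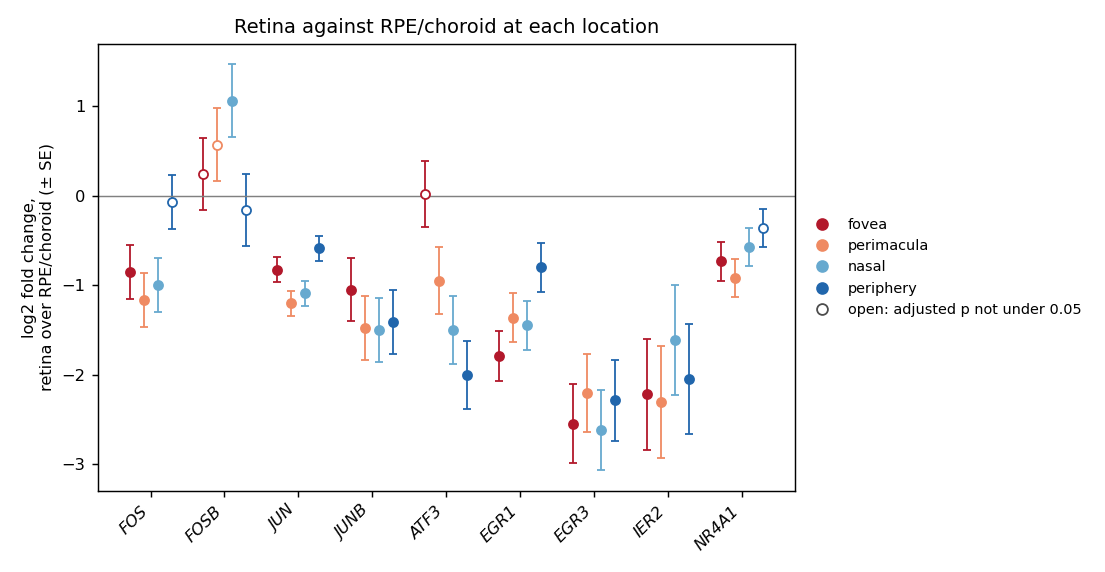
Log2 fold change of retina over RPE/choroid with its standard error for each gene at the 4 locations, where filled points passed the test at an adjusted p under 0.05. EGR3 and IER2 lie between -1.62 and -2.62 at all 4 locations, FOSB is above 0 at all but the periphery, and ATF3 goes from 0.02 at the fovea to -2.003 in the periphery.

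Whether the step from fovea to another location differed between the tissues was tested for every member. Against the perimacula 0 of 8 differed by edgeR, with 0 at an unadjusted p under 0.05 and 0 by DESeq2, where 15.2% of all genes did. Against the nasal location 1 differed, ATF3, where 23.5% of all genes did. Against the periphery 2 differed, ATF3 and EGR1, in opposite directions, where 43.5% of all genes did. For the 6 other members no difference between the tissues was detected in the step from fovea to periphery, with interaction values from -0.78 ± 0.42 for FOS to 0.40 ± 0.57 for FOSB.

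The spread over eyes was wider for these genes than for most. Within a location, the SD over eyes had a median of 0.61 on the log2 scale for the 8 members in the retina and 0.68 in the RPE/choroid, against 0.24 and 0.29 over all 16382 genes. For EGR1, EGR3 and IER2 in the retina it was 0.94, 0.96 and 1.35, above 96.2%, 96.4% and 98.7% of all genes. JUN was the exception, with 0.20 in both tissues, above 39.8% and 34.4% of all genes. Lanes of the same library, pooled over both tissues, differed less for the genes with many counts, by an SD of 0.08 for EGR1 and 0.09 for JUN. They differed more for those with few, by 0.57 for FOSB and 0.61 for EGR3.

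Much of this spread in the RPE/choroid lay between the 2 animals. All 8 members were higher in RM04 than in RM03 as a mean over the 4 locations, where 8155 of all 16382 genes were. The median difference of the members was 1.01 on the log2 scale, and the median gene differed by 0.23 in either direction. EGR1 was 2.66-fold higher in RM04, ATF3 2.15-fold, IER2 2.04-fold, FOSB 2.01-fold and EGR3 2.004-fold, whereas JUN was 1.06-fold. The 2 eyes of RM04 lay above the 2 eyes of RM03 at all 4 locations for EGR1, EGR3, ATF3 and IER2. How many of all genes did so was not counted, and these members were correlated across the eyes. The animals accounted for 70.4% of the sum of squares of IER2 and 66.5% of that of ATF3 in the RPE/choroid, against a median of 10.7% over all genes.

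In the retina the difference between the animals was narrower and less even. EGR1 was 2.78-fold and EGR3 2.12-fold higher in RM04, and the animals accounted for 62.6% of the sum of squares of EGR1. FOSB had no difference (1.00-fold) and JUN was 0.94-fold. The median size over the 8 members was 0.41 on the log2 scale, against 0.19 over all genes. For FOS the sign turned in the periphery, from 0.36 to 0.92 higher in RM04 at the other 3 locations to -0.74, and NR4A1, EGR3 and ATF3 also had RM03 higher in the periphery only, at -0.55, -0.44 and -0.20. FOSB had RM03 higher in the periphery (-0.57) and in the fovea (-0.13). There were only 2 animals, so no test of the animal difference was made, and whatever else differs between the 2 animals cannot be told apart from it. The summed level of 8 macrophage and microglia genes in the RPE/choroid went the other way, with 2245, 2038, 891 and 1139 CPM in the foveal eyes and RM03 above RM04 at every location. That of 8 endothelial genes went with the members, with 1625, 1876, 2231 and 2284 CPM in the foveal eyes and both eyes of RM04 above both eyes of RM03 at every location. For the sums of 7 RPE genes and of 7 genes listed for Müller glia and astrocytes, this held at all locations but the periphery, where the animals overlapped. The second list shares RLBP1 with the first. Its sum was 4540 to 6508 CPM in the foveal RPE/choroid and 1359 to 1462 CPM in the foveal retina, so it cannot be read as Müller glia alone. The sum of 6 smooth muscle and pericyte genes in the RPE/choroid did not go with the members. It was 7122, 8450, 6378 and 5607 CPM in the foveal eyes. Both eyes of RM03 lay above both eyes of RM04 at the fovea and the perimacula, and the animals overlapped at the nasal location and the periphery. The part of any cell type in the difference was not tested.

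**Figure D4:**
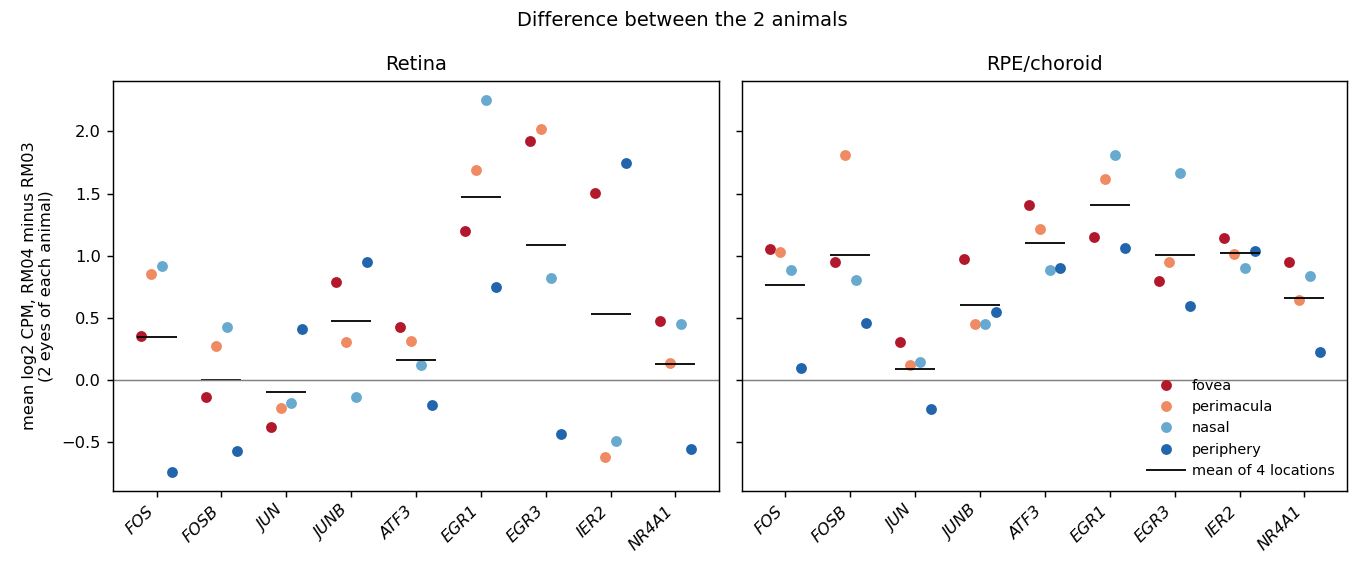
Mean log2 CPM of the 2 eyes of RM04 minus that of the 2 eyes of RM03 for each gene, with a point per location and a bar for the mean of the 4 locations, in the retina (left) and the RPE/choroid (right). Among RPE/choroid samples every bar is above 0 and the lowest is that of JUN at 0.09, and in the retina the periphery lies below the other locations for FOS, FOSB, EGR1, EGR3, ATF3 and NR4A1.

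The members moved together across eyes in the RPE/choroid. With the location means removed, the 28 pairs of members correlated at a median r of 0.79 over the 16 RPE/choroid libraries, all 28 were above 0, and the closest pair was EGR1 and EGR3 (r = 0.96). With the mean of the 2 fellow eyes removed at each location, which leaves only the difference between fellow eyes, the median was 0.59 and 25 of 28 were above 0. In the retina, the median with the location means removed was 0.06 with 17 of 28 above 0, and the closest pair was JUNB and IER2 (r = 0.82). With the mean of the 2 fellow eyes removed, the retinal median was 0.16 and 18 of 28 were above 0. In that measure fellow eyes deviate by equal and opposite amounts, so they are not separate values. All these correlations are descriptions over 16 libraries that share 4 eyes, 2 animals and their sequencing runs. The same median over pairs of other genes was not taken.

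The genes whose deviations were most like the mean of the members were ranked by the same measure over the 16 libraries of a tissue. Within the RPE/choroid they were RPS20 (r = 0.99), APOLD1 (r = 0.97), GRASP (r = 0.97), NCR1 (r = 0.96) and RPL8 (r = 0.95), among 12740 genes. KLF4, BTG2 and CYR61, which are themselves immediate early genes, came seventh, eleventh and fifteenth, and were named after their values were seen. In the retina the closest were BCL2L12 (r = 0.96), MMAB (r = 0.94), CC2D1B (r = 0.93), MRNIP (r = 0.93) and FAM234A (r = 0.92), among 12408 genes, and no other immediate early gene was in the first 15.

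A list of 28 other immediate early genes was examined in the same way, of which 26 were tested in the retina and 27 in the RPE/choroid. In the retina, 14 of 26 were higher in the fovea than in the periphery and 1 was lower, with a median log2 fold change of 0.54, and in the RPE/choroid 15 of 27 were higher and 2 lower, with a median of 0.57. The shares of all genes called in these comparisons were 67% and 44.1%. The one lower in the retinal fovea was EGR2 (-0.63 ± 0.23, adjusted p = 0.027), and those lower in the foveal RPE/choroid were IER5 (-0.80 ± 0.15, adjusted p = 0.0018) and KLF6 (-0.25 ± 0.09, adjusted p = 0.039). KLF6 was higher in the retinal fovea (1.18 ± 0.10), and the difference between the tissues passed the test (1.37 ± 0.13, adjusted p = 7.4e-09). These 3 genes were named after their values were seen. As among the members, 0 of 27 passed between fovea and perimacula or between fovea and nasal location in the RPE/choroid. The shares of all genes that passed there were 0.0447% and 0.361%. At the fovea, 20 of 27 were lower in the retina than in the RPE/choroid and 2 were higher, where 75.5% of all genes passed in either direction.

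MYC, a growth-promoting transcription factor, was 15.2 ± 0.93 CPM in the foveal retina and 1.71 ± 0.55 CPM in the peripheral retina (mean ± SD, n = 4), a log2 fold change of 3.24 ± 0.21 (SE, adjusted p = 1.8e-07). KLF2, a Krüppel-like factor known in endothelium for its response to blood flow, differed by 3.17 ± 0.55 in the retina (adjusted p = 0.00028) and by 2.75 ± 0.23 in the RPE/choroid (adjusted p = 8.9e-06). For the RPE/choroid it was 73.6 ± 29.6 CPM in the fovea and 10.9 ± 6.1 CPM in the periphery. Its level in the retina was low, at 2.01 ± 1.06 CPM in the fovea and 0.23 ± 0.18 CPM in the periphery. SGK1, a kinase induced by serum and glucocorticoids, was 171.1 ± 4.3 and 38.1 ± 6.8 CPM in the foveal and peripheral retina (adjusted p = 9.8e-07). CTGF, a secreted matricellular protein, was 956 ± 206 and 234 ± 40 CPM in the foveal and peripheral RPE/choroid (adjusted p = 9.1e-05), and KLF10, a Krüppel-like factor induced by TGF-beta, was 108.2 ± 28.5 and 31.1 ± 8.1 CPM (adjusted p = 5.4e-05).

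**Figure D5:**
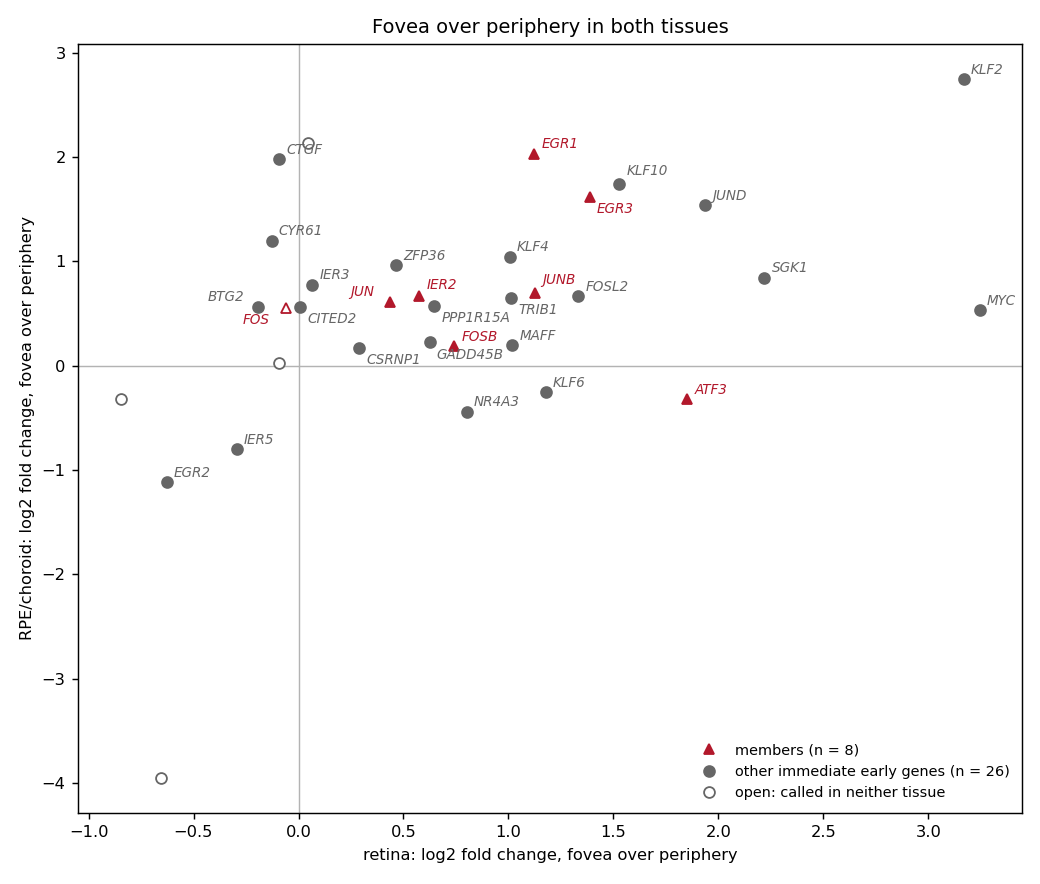
Log2 fold change of fovea over periphery in the retina (horizontal) and in the RPE/choroid (vertical) for the 8 members (triangles) and 26 other immediate early genes (circles), with filled symbols for genes that passed the test in at least 1 tissue. ATF3 and KLF6 lie to the right and below 0, and CTGF and CYR61 lie near 0 in the retina and above 1 in the RPE/choroid. KLF2 has a large fold change in both tissues, although its level in the retina was low.

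The feedback genes that MAP kinase signalling induces to limit itself were measured for 9 of 11 listed. The shares of all genes called from fovea to periphery, 67% in the retina and 44.1% in the RPE/choroid, stand beside their counts. In the retina 6 were higher in the fovea than in the periphery and 3 were lower, led by DUSP4 (1.81 ± 0.28, adjusted p = 0.00011), DUSP8 (1.71 ± 0.09, adjusted p = 6.0e-08) and DUSP6 (1.68 ± 0.20, adjusted p = 1.3e-05), phosphatases that act on MAP kinases. Among RPE/choroid samples 5 were higher and 1 lower, led by DUSP6 (2.32 ± 0.25, adjusted p = 4.9e-05), DUSP8 (2.14 ± 0.33, adjusted p = 0.00043) and SPRY4 (1.16 ± 0.10, adjusted p = 1.2e-05), an inhibitor of receptor tyrosine kinase signalling. DUSP6 was 476 ± 140 CPM in the foveal and 96.0 ± 39.8 CPM in the peripheral RPE/choroid (mean ± SD, n = 4).

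Kinases and constitutive factors that act upstream of the immediate early genes passed the test in both directions, in comparisons where 67% of all genes passed in the retina and 44.1% in the RPE/choroid. Of 18 measured, 10 were higher and 5 lower in the retinal fovea than in the retinal periphery, with the largest differences for the calcium-dependent kinase CAMK4 (1.70 ± 0.19, adjusted p = 8.2e-06), the ribosomal S6 kinase RPS6KA1 (1.22 ± 0.25, adjusted p = 0.00088) and the SRF partner ELK1 (0.89 ± 0.26, adjusted p = 0.0094), whose symbol is carried by 3 entries so that its value is uncertain. Within the RPE/choroid 6 were higher and 3 lower. SRF, the serum response factor itself, was 168.5 ± 24.6 CPM in the fovea and 55.5 ± 6.0 CPM in the periphery, a log2 fold change of 1.59 ± 0.11 (adjusted p = 3.0e-06). Its partner ELK4 was higher by 0.98 ± 0.20 (adjusted p = 0.0027), and MAP2K1, the kinase that activates ERK, was lower, at -1.29 ± 0.25 (adjusted p = 0.0018). MAP2K1 varied widely among the peripheral eyes, at 103.9 ± 54.7 CPM against 40.7 ± 1.9 CPM in the fovea (mean ± SD, n = 4).

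Heat shock genes, which respond to protein damage through a separate factor, were higher in the fovea than in the periphery for 5 of 9 tested in the retina and 6 of 9 in the RPE/choroid, and none was lower, beside 67% and 44.1% of all genes called in either direction. BAG3, a co-chaperone, differed by 1.99 ± 0.11 in the retina (adjusted p = 8.5e-08) and 0.97 ± 0.13 in the RPE/choroid (adjusted p = 0.00017), and the small chaperone HSPB1 by 1.19 ± 0.31 (adjusted p = 0.0050) and 1.57 ± 0.15 (adjusted p = 2.5e-05). HSPA8 differed by 0.61 ± 0.10 in the retina (adjusted p = 0.00023), with 5 entries carrying its symbol, and HSP90AA1 by 0.64 ± 0.10 in the RPE/choroid (adjusted p = 0.00037). Among the other comparisons of the fovea, 4 of 9 were higher and 0 lower in the retina against the perimacula and likewise against the nasal location, where 35.2% and 52.2% of all genes passed, and 0 of 9 passed in the RPE/choroid, where 0.0447% and 0.361% of all genes did.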

How the data were processed

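RNA-seq values of 32 libraries were used. Per the labels and the study's methods, the authors assigned the reads of each lane to Mmul_8.0.1 transcripts by Salmon 0.13 and took them to gene level through tximport. The deposited values are length-scaled estimated counts for 136 lanes, and gene symbols come from orthology predictions. Of 19432 entries, 10 that repeated an identifier were dropped. The lane values of each library were added and then rounded to whole counts, and 0 columns belonged to other samples.

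Tests used edgeR 4.0.16 (quasi-likelihood, TMM, filterByExpr at a minimum count of 10) with limma 3.58.1 under R 4.3.3, with a term for the animal. p-values were adjusted by Benjamini-Hochberg over every gene tested and called at an adjusted p under 0.05. Standard errors are the log2 fold change over the root of F. Libraries of 3 locations (fovea, perimacula, periphery) entered the fit of each tissue, the nasal comparison came from the 4-location fit, and tissue differences and interactions came from a fit of all 32 libraries. Levels are TMM-normalised CPM over 32 libraries, and log2 CPM has a prior count of 2. Python 3.11.15, numpy 2.4.6, pandas 2.3.3 and matplotlib 3.10.9 were used for the descriptions. The fits were tested on simulated data.

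The members and gene lists were chosen with earlier results of these data known. Genes named beside the members are the 3 called genes of each list with the largest change from fovea to periphery in a tissue and the 5 genes per tissue most like the mean of the members at a mean log2 CPM of at least 1. Where several entries carried a symbol, the one with the highest count was used. Alternatives were DESeq2 1.42.0, RLE normalization, no filter on low counts, no animal covariate, the eye as a replicate block, 2 lanes per library, the nasal libraries included, a prior count of 0.25 and leaving out each eye. Replicates are numbered by the animal and eye of the labels, so that the same number is the same eye. Deviations from the location mean, over 1000 genes, correlated between locations of an eye at a mean of 0.56 in the retina and 0.39 in the RPE/choroid. Between fellow eyes the means were 0.56 and 0.41, and the lowest value for a pair of the same eye was 0.17. These values do not tell an eye from its fellow eye, so the eye of a replicate rests on the labels alone. p-values and standard errors of the main fits measure the spread over eyes that is left after the animal term. The mean difference between the 2 animals is taken out by that term, and fellow eyes enter as separate samples. Promoter and protein sequences were not used here.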

Additional observations from a re-analysis of the deposited data

Results flagged for a closer look

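A member's value in 1 eye stood far from the other three in 4 of the 64 groups of 4 eyes examined, and chance alone would set about 1 in 20 groups apart by the same rule. In the RPE/choroid these were 3 values of the right eye of RM04: JUN in the nasal location, at 66.2 CPM against 49.9 to 52.2 in the other eyes, JUNB in the periphery, at 36.2 CPM against 15.8 to 19.01, and EGR3 in the periphery, at 2.97 CPM against 1.31 to 1.53. In the retina it was IER2 in the periphery of the left eye of RM04, at 7.71 CPM against 0.64 to 1.51.

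The step from the fovea to another location differed between the tissues for 2 members by the interaction test of edgeR. For ATF3, the log2 fold change in the retina minus that in the RPE/choroid was 1.52 against the nasal location (adjusted p = 0.036) and 2.02 against the periphery (adjusted p = 0.0027). For EGR1 it was -0.99 against the periphery (adjusted p = 0.040).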

How the results depend on the processing

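Of 50 calls of a member in a comparison, none changed direction over 520 values under other settings. The call was kept in 466 of these and lost in 54, of which 39 came from leaving out an eye, which also leaves fewer samples. For each other loss the cause was not tested. Leaving out each eye in turn, the members called numbered 0 to 1 between fovea and perimacula of the retina (1 with all eyes), 2 to 5 between fovea and periphery (6), 1 to 3 between perimacula and periphery (3), 3 to 5 between fovea and periphery of the RPE/choroid (5), 3 to 6 between the tissues in the periphery (6), 0 to 0 for the interaction of tissue with fovea and nasal location (1) and 1 to 2 for that with fovea and periphery (2). With no filter on low counts, 0 members were called between fovea and perimacula of the retina. With no animal covariate the counts were 0 between fovea and perimacula of the retina, 3 between fovea and periphery of the RPE/choroid, 0 for the interaction with fovea and nasal location and 1 for that with fovea and periphery. With the eye as a replicate block, which pairs the samples of an eye, the interaction with fovea and periphery had 1 member, since EGR1 was lost (adjusted p = 0.0507), and JUNB was lost between fovea and periphery of the retina (adjusted p = 0.086). It changed no other call. Over all genes, DESeq2 called 314 between fovea and perimacula and 490 between fovea and nasal location of the RPE/choroid, where edgeR called 7 and 57, and every setting tried gave 0 to 314 and 0 to 490. Without the right eye of RM03 or of RM04, fovea against perimacula of the retina had 3225 and 3406 genes in place of 5416, and the interaction with it 1023 and 867 in place of 2494 (1641 with no animal covariate). That with the nasal location had 2548 and 2510 in place of 3853 without the right eye of RM03 and the left eye of RM04, and without the latter perimacula against periphery of the RPE/choroid had 3314 in place of 5471. Depth limits FOSB and EGR3 the most, with as few as 15 and 17 counts in a library.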
